A study of Homo sapiens with 27 samples.

Results

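The CCN family consists of 6 genes that encode secreted matricellular proteins, and all 6 had a row in the count files under their older symbols CYR61, CTGF, NOV, WISP1, WISP2 and WISP3. They were chosen by symbol, from 55882 gene symbols in each of 27 libraries of poly(A) RNA, and the rule itself used no measured value. The libraries came from U2OS cells, a human osteosarcoma line, in 3 stable lines with 3 libraries per line and day. The control libraries are titled WT, and their treatment protocol states that these cells held a blank pLKO.1 vector, while MMP2sh1 and MMP2sh2 carried the same vector with an shRNA, a short hairpin RNA that lowers the mRNA of its target, against MMP2, the gene of the secreted gelatinase MMP-2. The methods give lentiviral infection and puromycin selection for pLKO.1 control and shRNA constructs alike. Harvests were made from subconfluent (day −2), confluent (day 0) and overconfluent (day +2) cultures. The study followed cleavage of the histone H3 tail and gene expression over cell expansion, with and without MMP2 depletion. It reported no significant loss of proliferation in the depleted cells. Each hairpin was represented by 1 stable line, so that hairpin and line cannot be told apart, and by the study's account MMP-2 protein was also present in the growth medium. The methods describe the 3 libraries of a group as independent replicates.

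CCN proteins are built from shared modules that resemble insulin-like growth factor binding proteins, von Willebrand factor type C repeats and thrombospondin type 1 repeats, and most members end in a cystine knot, which WISP2 lacks. They bind integrins, heparan sulfate proteoglycans such as syndecans, and growth factors in the matrix, and so modulate adhesion, migration and differentiation rather than serving as structural fibres. CYR61 and CTGF are widely used readouts of YAP and TAZ, the coactivators that the Hippo kinases hold back in dense cultures and that act through TEAD factors. NOV is best known for opposing proliferation in several cell types and for signalling through integrins and Notch, and WISP1 and WISP2 were named as genes induced by WNT1. In bone, CYR61 and CTGF are known for promoting osteoblast and chondrocyte functions, and NOV for restraining osteoblast differentiation.

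In GRCh37, the build that the authors name hg19, CYR61 (current symbol CCN1) lies on chromosome 1 from 86046444 to 86050272 on the plus strand and CTGF (CCN2) on chromosome 6 from 132269316 to 132272512 on the minus strand. NOV (CCN3) lies on chromosome 8 from 120428686 to 120436674 and WISP1 (CCN4) on the same chromosome from 134203282 to 134243933, both on the plus strand. WISP2 (CCN5) lies on chromosome 20 from 43343485 to 43357150 and WISP3 (CCN6) on chromosome 6 from 112375278 to 112390889, both on the plus strand. Their canonical transcripts hold 2278, 2338, 2463, 5190, 1279 and 1385 bases in the order CYR61, CTGF, NOV, WISP1, WISP2 and WISP3, in 4 exons for WISP2 and 5 for each other gene. The values are counts of reads on all exons of a gene. Strand was not used in the counting, and exons of CTGF and NOV overlap antisense long noncoding RNAs. The partner of CTGF, LINC01013, had 0 or 1 counted read per library, which does not show how reads on the shared exons were assigned. Reads of NOV and its partner ENSG00000286282 cannot be told apart, and NOV is uncertain to that extent.

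The total count on genes was 33580129 to 59374327 per library (median 40075178), and the 6 genes together took 15555 to 35445 reads. MMP2 itself was lower in every shRNA library than in any control library of the same day, by −2.34 to −2.53 on the log2 scale for MMP2sh1 and −0.70 to −1.06 for MMP2sh2. Of the osteoblast lineage markers, RUNX2 (30 to 63.7 CPM, reads scaled to a common library size), COL1A1 (1005 to 1486 CPM) and SPARC (1182 to 2075 CPM) were expressed, whereas SP7, IBSP, BGLAP and COL1A2 stayed at or under 0.683 CPM in all 27 libraries. The list also held VIM (678 to 841 CPM) and ALPL (0.397 to 6.98 CPM). The summed level of this list, most of it from COL1A1, SPARC and VIM, was 4155.5 to 4231.7 CPM in MMP2sh1 at day +2. In all other groups the sum was 3141.2 to 3841.0 CPM. The 11 markers of other cell types found in the files summed to 130.6 to 225.8 CPM, of which KRT18 held 107 to 189 CPM. That sum was highest in MMP2sh1 at day −2 (202.0 to 225.8 CPM, against 172.5 to 183.0 CPM in the control), and the part of either list in the results below was not tested.

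Levels are given as CPM scaled with the TMM factors of edgeR. CYR61, CTGF and NOV were well expressed in every library, with at least 4322, 4874 and 1551 reads. WISP1 was low, with 84 to 304 reads per library. WISP2 had 1 to 44 reads, and WISP3 had 0 to 8 reads with none in 16 of the 27 libraries. A count of 0 allows up to 3 reads, which is 0.0496 to 0.0891 CPM in those libraries, and this limit covers counting error only. WISP3 fell under the filter on low counts in all 20 comparisons and was not tested. The plot of CPM by library shows a different course over the days for each of the 3 abundant genes.

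**Figure D1:**
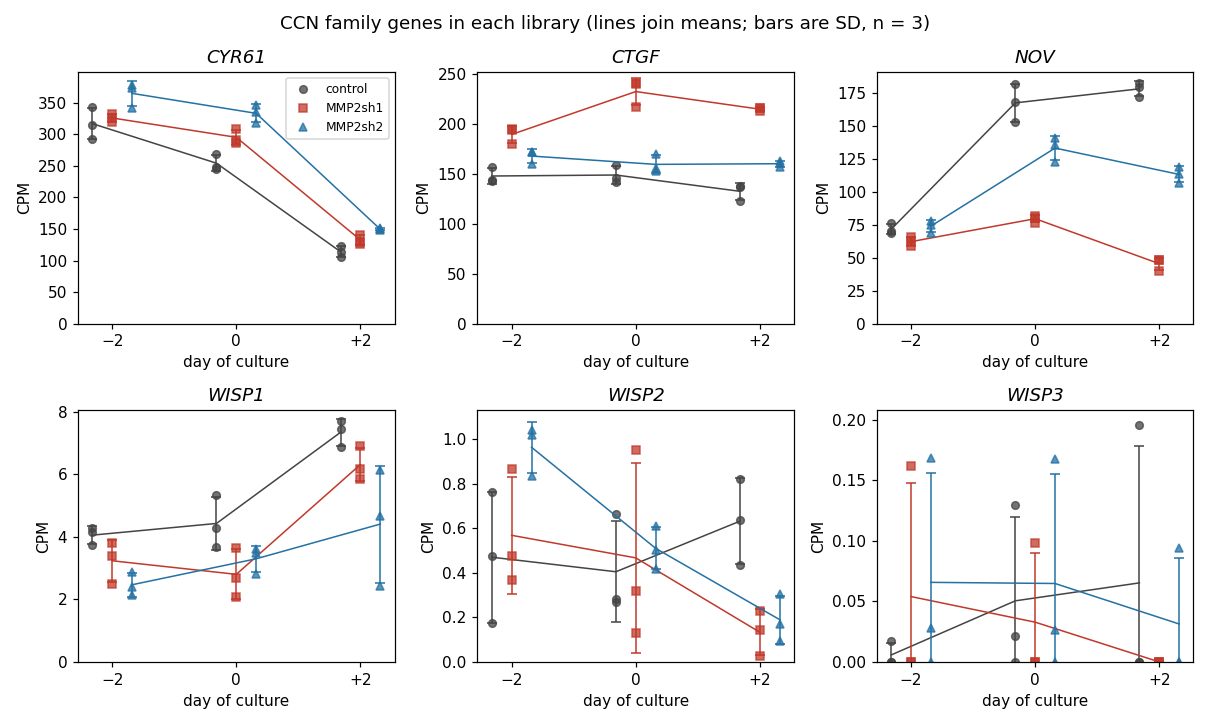
CPM (y axis, from 0, with its own scale per gene) of the 6 CCN genes in each of 27 libraries by day of culture (x axis), with circles for control, squares for MMP2sh1 and triangles for MMP2sh2. Lines join the means and bars are the SD of 3 libraries. CYR61 drops in all 3 lines, CTGF is highest in MMP2sh1, and NOV ends at 179 CPM in control and 45.6 CPM in MMP2sh1.

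To compare levels between genes, reads were divided by transcript length and expressed as a share of the family's sum per length. In the subconfluent control, CYR61 made up 59.8% of this sum, CTGF 27.2% and NOV 12.5%. In the overconfluent control the order had turned, with NOV at 40.1%, CTGF at 31.3% and CYR61 at 27.5%. In overconfluent MMP2sh1 CTGF led with 54.1%, followed by CYR61 with 34.2% and NOV with 10.9%. In overconfluent MMP2sh2 the shares of CTGF (37.9%) and NOV (25.3%) lay between those of the other lines, and that of CYR61 (36.2%) was above both. WISP1 stayed at or under 0.78% and WISP2 at or under 0.287% in all 9 groups. The summed CPM of the family, which is not divided by length, was 541 ± 17.5 (SD, n = 3) in the subconfluent control and 433 ± 23.8 in the overconfluent control. It was 582 ± 5.43 and 400 ± 3.90 in MMP2sh1 and 611 ± 25.9 and 428 ± 6.09 in MMP2sh2 at the same days.

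**Figure D2:**
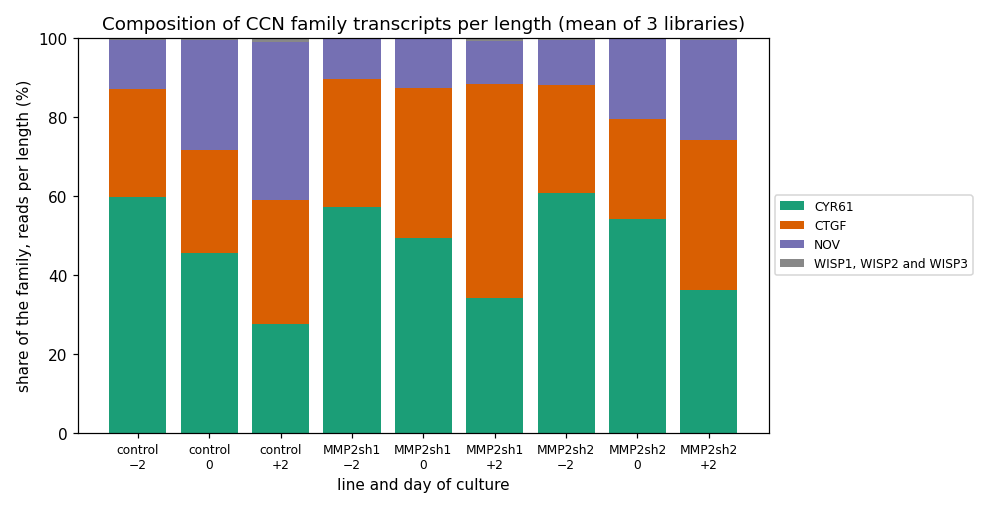
Share of each CCN gene in the family's reads per transcript length (y axis, percent) for the 9 groups of line and day (x axis), each bar the mean of 3 libraries. The NOV share grows from 12.5% to 40.1% in control and is 10.9% in MMP2sh1 at day +2.

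Each shRNA line was compared with the control at each day to ask which genes differ when MMP2 is lowered. At day −2, 2 of the 5 CCN genes tested were called in MMP2sh1 (adjusted p under 0.05), where 11.6% of all tested genes were called, and 3 of 5 in MMP2sh2, where 11% were. At day 0, 4 of 5 were called in MMP2sh1 against 16.8% of all genes, and 2 of 5 in MMP2sh2 against 12.9%. At day +2, 4 of 5 were called in each line, against 14.8% of all genes in MMP2sh1 and 6.32% in MMP2sh2. CYR61 and CTGF were higher, and NOV, WISP1 and WISP2 lower, in each of these calls. The same control libraries entered both comparisons of a day. The median log2 fold change over the 5 genes at day +2 was −0.22 in MMP2sh1 and −0.66 in MMP2sh2, beside −0.002 and −0.001 over all genes.

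**Figure D3:**
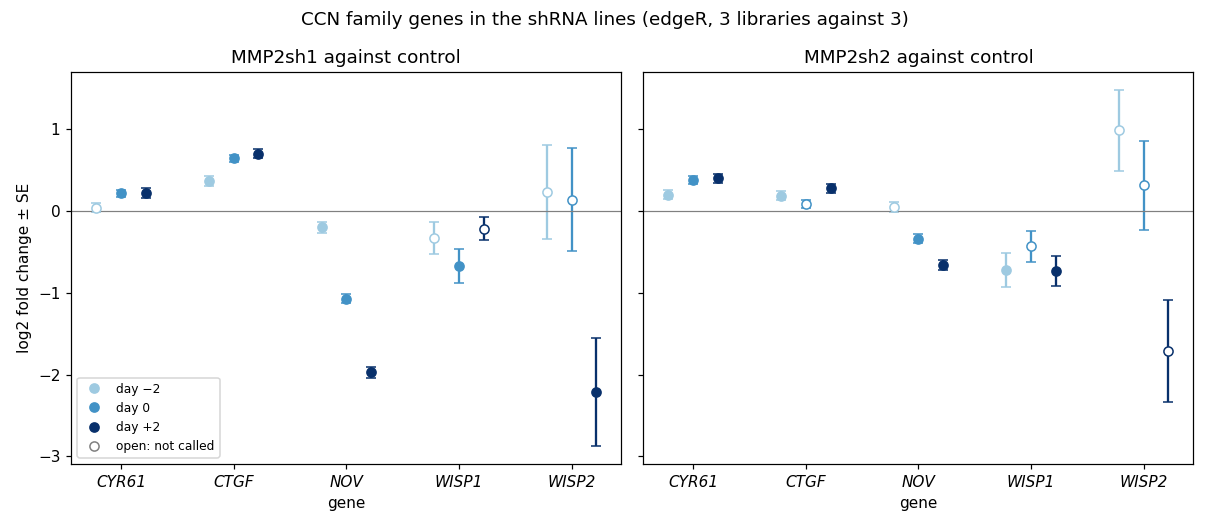
Log2 fold change against control (y axis) with its standard error for 5 CCN genes (x axis) in MMP2sh1 (left) and MMP2sh2 (right), from 3 libraries against 3 at each day. Filled points were called and open points were not. The NOV points step down from day −2 to day +2, to −1.97 in MMP2sh1 and −0.66 in MMP2sh2.

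CYR61, whose product binds integrins and supports adhesion and migration, fell with density in every line and was slightly higher than control in 5 of the 6 comparisons with an shRNA line. In bulk RNA, fewer cells that express a gene and less RNA per cell cannot be told apart, here and below. In the control libraries it was at 315, 343 and 293 CPM at day −2, at 245, 249 and 269 CPM at day 0 and at 123, 114 and 105 CPM at day +2. In MMP2sh1 it was at 332, 326 and 320 CPM, then 286, 309 and 291 CPM, then 141, 130 and 127 CPM. In MMP2sh2 it was at 342, 374 and 379 CPM, then 318, 336 and 346 CPM, then 148, 150 and 151 CPM. Every library of day +2 was thus below every library of the earlier days in all 3 lines. From day −2 to day +2 the log2 fold change was −1.47 in the control (standard error 0.06, adjusted p = 1.8e-17), −1.30 in MMP2sh1 (0.06, 1.2e-14) and −1.28 in MMP2sh2 (0.06, 2.1e-18), by the quasi-likelihood test of edgeR adjusted after Benjamini and Hochberg, which gave all adjusted p below as well. Most of this fall came after confluence. From day 0 to day +2 the values were −1.14, −1.14 and −1.13, whereas from day −2 to day 0 they were −0.31 (adjusted p = 1.7e-05), −0.14 (0.025) and −0.13 (0.048). The MMP2sh1 value of that first step was not called without its day 0 replicate 1 or 3 (adjusted p = 0.14 and 0.10), and the MMP2sh2 value lost its call in 8 of 12 alternatives (−0.10 to −0.19, adjusted p up to 0.26). Against control, CYR61 in MMP2sh2 differed by 0.20 (adjusted p = 0.027) at day −2, where the library ranges overlapped, by 0.38 (7.5e-08) at day 0 and by 0.39 (5.3e-06) at day +2. In MMP2sh1 the differences were 0.04 (adjusted p = 0.74), 0.21 (3.7e-04) and 0.22 (0.016), and the last was 0.21 (adjusted p = 0.074) without control replicate 2 and 0.16 (0.17) without control replicate 3. The day −2 value of MMP2sh2 was not called without control replicate 1 or 3 or its own replicate 2 or 3 (0.15 to 0.20, adjusted p = 0.054 to 0.16).

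CTGF, whose product binds TGF-beta and integrins and promotes matrix production, kept nearly one level in the control and was higher in MMP2sh1 at every day. The 250 bases before its annotated start are shown because YAP and TAZ act through TEAD factors. The RefSeq promoter table, on GRCh38.p14, gives them on the minus strand at chr6:131951373-131951622, and capitals mark each GGAATG, the letters commonly taken for a TEAD site.
CTGF promoter: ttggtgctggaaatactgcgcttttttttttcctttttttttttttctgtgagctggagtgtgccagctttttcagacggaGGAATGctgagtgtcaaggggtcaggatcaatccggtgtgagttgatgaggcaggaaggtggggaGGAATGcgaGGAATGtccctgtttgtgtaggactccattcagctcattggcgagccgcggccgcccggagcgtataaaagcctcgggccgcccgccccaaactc
Searched on both strands, the letters GGAATG began 169, 104 and 95 bases before the start, all on the strand of the gene, and a TATAAA began 32 bases before it. Of 35116 promoters of the same length in the table, 11.9% held GGAATG at least once and 0.0826% at least 3 times. No TGAGTCA (AP-1), CTTTGAT (TCF/LEF) or CArG box was found in this window. Matches describe the letters only. Of the other members, WISP3 had a promoter entry with 1 GGAATG, 128 bases before its start. No promoter of CYR61, NOV, WISP1 or WISP2 is described here.

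In the control libraries CTGF was at 144, 143 and 157 CPM at day −2, at 142, 146 and 159 CPM at day 0 and at 138, 137 and 123 CPM at day +2. MMP2sh1 had 180, 195 and 194 CPM, then 217, 240 and 241 CPM, then 216, 216 and 213 CPM. MMP2sh2 had 160, 172 and 172 CPM, then 156, 153 and 170 CPM, then 163, 157 and 161 CPM. All 3 MMP2sh1 libraries lay above all control libraries at each day, and MMP2sh2 overlapped with the control at day 0. The log2 fold change of MMP2sh1 against control was 0.36 (standard error 0.06, adjusted p = 8.1e-05) at day −2, 0.64 (0.05, 2.8e-12) at day 0 and 0.69 (0.06, 2.1e-10) at day +2, or 1.29-fold, 1.56-fold and 1.62-fold. In MMP2sh2 it was 0.18 (adjusted p = 0.032), 0.09 (0.30) and 0.27 (9.2e-04). The first of these was not called without control replicate 1 or 2 or without its own replicate 2 (0.16 to 0.17, adjusted p = 0.11 to 0.16). Over the days, CTGF in the control changed by 0.02 to day 0 (adjusted p = 0.80) and by −0.15 from day −2 to day +2 (0.019). The latter was −0.11 (adjusted p = 0.097) without the day −2 replicate 3 and −0.10 (0.16) without the day +2 replicate 3. From day 0 to day +2 it changed by −0.15 (adjusted p = 0.028), and by −0.10 (0.21) and −0.09 (0.23) without replicate 3 of day 0 or of day +2. In MMP2sh1 it rose by 0.30 to day 0 (adjusted p = 1.7e-04), and the difference between day +2 and day −2 was 0.18 (0.013), with an adjusted p of 0.061 without the day −2 replicate 1 and 0.057 without the day +2 replicate 2. In MMP2sh2 it moved by −0.08, 0.03 and −0.06 in the 3 comparisons of days, none of them called.

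The ratio of CTGF to CYR61 reads needs no scaling between libraries. Control libraries gave 0.417 to 0.533 at day −2, then 0.578 to 0.592 at confluence and 1.12 to 1.20 at day +2. In MMP2sh1 it was 0.543 to 0.608, 0.759 to 0.827 and 1.54 to 1.68, above every control library of the same day. In MMP2sh2 it was 0.455 to 0.470, 0.456 to 0.492 and 1.05 to 1.10, and its day 0 and day +2 libraries were all below those of the control. Both commonly used YAP and TAZ readouts were thus not in a fixed proportion, and the ratio was higher at day +2 than at the earlier days in each line.

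NOV, which is known for restraining proliferation, rose 2.35-fold in the control by confluence and less in the shRNA lines, where it fell again after confluence. The control libraries held 68.8, 70.4 and 76.1 CPM at day −2, 182, 168 and 153 CPM at day 0 and 183, 180 and 172 CPM at day +2. MMP2sh2 held 74.9, 78.2 and 69.2 CPM, then 141, 123 and 136 CPM, then 107, 119 and 114 CPM. MMP2sh1 held 58.6, 62.6 and 65.6 CPM, then 80.5, 76.6 and 82.0 CPM, then 40.2, 48.3 and 48.1 CPM. At day −2 the MMP2sh2 range overlapped with the control, and at days 0 and +2 the 3 lines formed 3 separate ranges, with control highest and MMP2sh1 lowest. The log2 fold change of MMP2sh1 against control was −0.20 (standard error 0.07, adjusted p = 0.039) at day −2, −1.08 (0.05, 1.4e-16) at day 0 and −1.97 (0.07, 4.7e-19) at day +2, the last a 3.93-fold lower level. At day +2, 36 of 19294 tested genes had a lower log2 fold change than NOV. The day −2 value of MMP2sh1 lost its call without any one of 5 libraries, which were all but its own replicate 3 (−0.17 to −0.23, adjusted p = 0.069 to 0.19). In MMP2sh2 the values were 0.04 (adjusted p = 0.73), −0.34 (2.6e-05) and −0.66 (8.8e-12). Under all 12 alternatives, the day +2 difference stayed between −1.89 and −2.02 in MMP2sh1 and between −0.62 and −0.70 in MMP2sh2.

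Over the days, NOV in the control rose by 1.23 on the log2 scale until confluence (standard error 0.06, adjusted p = 1.7e-15) and differed by 0.11 from day 0 to day +2 (0.093), or by 0.18 (0.016) without the day 0 replicate 1. In MMP2sh2 it rose by 0.84 (adjusted p = 2.8e-10) and then fell by 0.22 (0.003). In MMP2sh1 it rose by 0.36 (adjusted p = 8.8e-05) and then fell by 0.80 (1.2e-09). Fitted directly between day −2 and day +2, the difference was 1.32 in the control (adjusted p = 1.4e-17), 0.61 in MMP2sh2 (2.3e-09) and −0.45 in MMP2sh1 (3.6e-05), so that the direction in MMP2sh1 was opposite to that of the other lines.

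**Figure D4:**
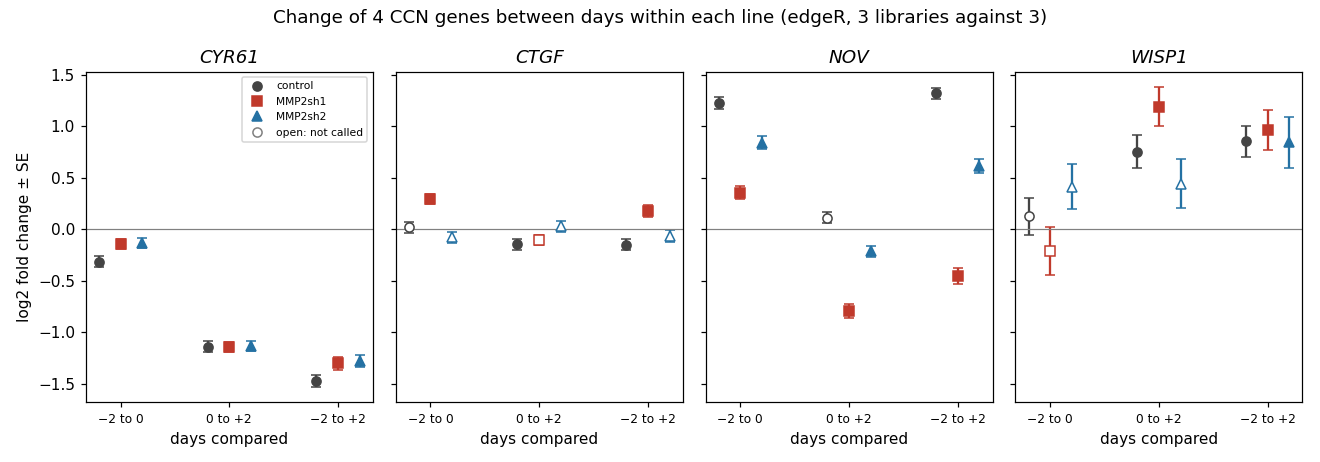
Log2 fold change (y axis) with its standard error for CYR61, CTGF, NOV and WISP1 between the days named on the x axis, within control (circles), MMP2sh1 (squares) and MMP2sh2 (triangles), from 3 libraries against 3. Filled points were called and open points were not. The lines coincide for CYR61 after day 0, and for NOV they spread from 1.32 to −0.45 over the whole expansion.

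WISP1, named for its induction by WNT1 and known for promoting osteoblast proliferation and differentiation, was low and rose by day +2 in every line. It was at 4.28, 4.14 and 3.74 CPM in the control at day −2, at 4.27, 3.67 and 5.34 CPM at day 0 and at 7.69, 7.46 and 6.87 CPM at day +2. MMP2sh1 had 3.81, 2.50 and 3.39 CPM, then 2.68, 2.07 and 3.65 CPM, then 6.17, 5.86 and 6.90 CPM. MMP2sh2 had 2.89, 2.13 and 2.38 CPM, then 2.82, 3.47 and 3.60 CPM, then 2.42, 4.66 and 6.14 CPM. The MMP2sh2 libraries of day +2 spread most and reached down into the range of day −2. From day −2 to day +2 WISP1 rose by 0.86 in the control (standard error 0.15, adjusted p = 2.1e-05), by 0.96 in MMP2sh1 (0.19, 1.5e-04) and by 0.84 in MMP2sh2 (0.25, 0.005), the last 0.53 (adjusted p = 0.12) without the day +2 replicate 3. Against control, MMP2sh2 was called at day −2 (−0.72, adjusted p = 0.022) and at day +2 (−0.74, 0.0096), and MMP2sh1 at day 0 (−0.67, 0.021). The other 3 values were −0.33, −0.22 and −0.44 and were not called (adjusted p = 0.33, 0.34 and 0.15). These calls rest on few reads. The day −2 call was lost without control replicate 1 or 2 or MMP2sh2 replicate 2 or 3 (−0.62 to −0.71, adjusted p = 0.055 to 0.11), the day 0 call without control replicate 3 or MMP2sh1 replicate 1 or 2 (−0.50 to −0.64, 0.078 to 0.16), and the day +2 call without control replicate 1 (−0.70, 0.066) or MMP2sh2 replicate 1 (−0.44, 0.16).

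WISP2, the member without the C-terminal module, was near the limit of detection. The control libraries held 44, 20 and 6 reads at day −2, 13, 31 and 11 at day 0 and 29, 26 and 18 at day +2. MMP2sh1 held 32, 22 and 15 reads, then 8, 13 and 32, then 1, 9 and 6. MMP2sh2 held 43, 41 and 36 reads, then 15, 18 and 23, then 7, 13 and 4. At day +2 every shRNA library had fewer reads than any control library. From day −2 to day +2 the log2 fold change was −2.06 in MMP2sh1 (standard error 0.71, adjusted p = 0.017) and −2.32 in MMP2sh2 (0.57, 9.4e-04), and 0.38 in the control (0.53, 0.56). The MMP2sh1 call was lost without its day −2 replicate 1 or its day +2 replicate 1 or 3 (−1.59 to −2.12, adjusted p = 0.052 to 0.12). Against control at day +2, MMP2sh1 was at −2.21 (adjusted p = 0.021) and MMP2sh2 at −1.71 (0.099). The former was not called without control replicate 1 or 2 or its own replicate 1 or 3 (−1.74 to −2.27, adjusted p = 0.065 to 0.12). For WISP3, the 45 reads in all comprised 1 read in the control at day −2, 7 at day 0 and 8 at day +2, 6, 4 and 0 reads in MMP2sh1, and 8, 7 and 4 reads in MMP2sh2, too few for a test.

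The comparisons of days ask how expression moved as the cultures filled. In the control, 2 of 5 tested CCN genes were called from day −2 to day 0, where 35.5% of all genes were called, 3 of 5 from day 0 to day +2 (41.4%) and 4 of 5 from day −2 to day +2 (56.8%). In MMP2sh1 the counts were 3 of 5 (32.7% of all genes), 3 of 4 (46%) and 5 of 5 (54.9%). In MMP2sh2 they were 2 of 5 (30.3%), 2 of 5 (45.5%) and 4 of 5 (54.7%). The counts are read against these shares of all genes, and directions and sizes are given with each gene. Over all genes the median log2 fold change between day −2 and day +2 was 0.03 to 0.05 in the 3 lines.

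MMP2sh1 was also compared with MMP2sh2 directly, since both lines share their control libraries. At day −2, 1 of 5 tested CCN genes was called against 10.7% of all genes, at day 0, 3 of 5 against 18.5%, and at day +2, 2 of 4 against 7.86%. NOV was lower in MMP2sh1, at −0.25 (adjusted p = 0.021), −0.73 (4.0e-13) and −1.31 (1.2e-11) at the 3 days. The day −2 value was not called without MMP2sh1 replicate 1 or 2 or MMP2sh2 replicate 1 or 2 (−0.21 to −0.26, adjusted p = 0.073 to 0.14). CTGF was higher in MMP2sh1, at 0.17 (adjusted p = 0.074), 0.56 (2.0e-11) and 0.42 (6.7e-06). CYR61 was lower in MMP2sh1, at −0.16 (adjusted p = 0.081), −0.16 (0.0026) and −0.18 (0.06). WISP1 differed by 0.39, −0.23 and 0.51, with none called, and WISP2 was tested at day −2 and day 0 only, with −0.77 and −0.18 and neither called. MMP2 was lower in MMP2sh1 than in MMP2sh2, at −1.84, −1.41 and −1.52 at the same days.

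Whether the change from day −2 to day +2 differed between an shRNA line and the control was tested as an interaction on 12 libraries. Of the 5 CCN genes tested, 2 were called for MMP2sh1, where 7.4% of all genes were called, and 2 for MMP2sh2, where 4.98% were. NOV was called for both, with −1.77 (standard error 0.10, adjusted p = 1.3e-13) for MMP2sh1 and −0.71 (0.08, 5.4e-07) for MMP2sh2, and with −1.69 to −1.81 and −0.66 to −0.76 over 18 alternatives. CTGF was called for MMP2sh1 (0.33, standard error 0.08, adjusted p = 0.0073) and not for MMP2sh2 (0.08, 0.64). WISP2 was called for MMP2sh2 (−2.71, standard error 0.80, adjusted p = 0.041), a call lost when 9 of the 12 libraries were left out one at a time, and its value for MMP2sh1 was −2.45 (0.12). CYR61 (0.18 and 0.19, adjusted p = 0.24 and 0.20) and WISP1 (0.12 and −0.02, adjusted p = 0.85 and 0.99) were not called, which does not show that their courses were alike.

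The 9 group means were put in order for each gene, with neighbours taken as not separated where the ranges of their 3 libraries overlapped. For CYR61 the order ran from 365 CPM in MMP2sh2 at day −2 to 114 CPM in the control at day +2. Its first 5 groups overlapped from one to the next, and from the fifth, MMP2sh1 at day 0 (295 CPM), downward each was separated from the next. The 3 groups of day +2 took the last 3 places. For CTGF the 3 MMP2sh1 groups took the first 3 places (233, 215 and 190 CPM at days 0, +2 and −2), each separated from the next. The groups from MMP2sh2 at day −2 (168 CPM) to the control at day −2 (148 CPM) overlapped from one to the next, and the control at day +2 came last. For NOV, control at day +2 and day 0 overlapped at the top, MMP2sh2 at day 0 and day +2 (133 and 113 CPM) were separated from them and from each other, and MMP2sh1 at day +2 (45.6 CPM) was separate at the bottom. For WISP1, control and MMP2sh1 at day +2 (7.34 and 6.31 CPM) overlapped with each other and were separated from the third, control at day 0. MMP2sh2 at day +2 came after that by its mean, but its libraries (2.42 to 6.14 CPM) overlapped with MMP2sh1 at day +2 (5.86 to 6.90 CPM). For WISP2, MMP2sh2 at day −2 (0.833 to 1.04 CPM) came first and was separated from the next in order, control at day +2 (up to 0.823 CPM). It overlapped with MMP2sh1 at day −2 (up to 0.866 CPM) and day 0 (up to 0.95 CPM). All further neighbours of WISP2 overlapped.

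The genes whose 9 group means of log2 CPM followed each CCN gene most closely were sought by Pearson correlation among 15135 other genes with a mean of at least 1 CPM. These are descriptions over 9 points that share their scaling and the changes between days. For CYR61 they were COL4A4, a chain of basement membrane collagen (r = 0.995), NF2, an upstream component of the Hippo pathway (0.994), and MFAP5, a microfibril protein (0.994). NF2 also ranked first over the 27 libraries (r = 0.988). For NOV they were ZMAT4 (0.951), ZNF503-AS2 (0.947) and TGIF1 (0.939), of which TGIF1, a homeobox repressor of TGF-beta signalling, ranked first over the 27 libraries (0.900). ZMAT4 and ZNF503-AS2 ranked 20 and 19 there (0.796 and 0.803). For CTGF they were TDRD7, CTD-2207P18.2 and CHMP4C (0.909, 0.908 and 0.907). Over the 27 libraries these had 0.668, 0.776 and 0.742 and ranked 46, 4 and 12. For WISP1 they were GAS7, CEP19 and NRG1-IT1 (0.954, 0.950 and 0.946), which ranked only 931, 291 and 1789 over the 27 libraries. Between the members themselves, r over the 9 means was 0.15 for CYR61 with CTGF, −0.72 for CTGF with NOV, −0.19 for CYR61 with NOV and −0.87 for CYR61 with WISP1.

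Around the family, 20 YAP and TAZ target genes other than CCN genes were followed. LATS2, AMOTL2 and PTPN14 also stand in the list of Hippo components below, and TGFB2 in that of the TGF-beta pathway. The counts of these lists are therefore not separate. In the control all 18 of those tested were called between day −2 and day +2, 16 lower and 2 higher, with a median log2 fold change of −0.76, beside 56.8% called and a median of 0.03 over all genes. FJX1 (−1.90), TGFB2 (−1.72), CRIM1 (−1.47), F3 (−1.44), the gene of tissue factor, and AXL (−1.38), a receptor tyrosine kinase, fell about as CYR61 did (−1.47). ANKRD1, another common readout, changed by −0.12 (adjusted p = 0.038), which is near the −0.15 of CTGF. In MMP2sh1 at day +2, 6 of 18 were called against control, 3 in each direction (median 0.05), where 14.8% of all genes were called, and in MMP2sh2 10 of 18, of which 7 were higher (median 0.11), where 6.32% were. AXL was higher in both lines (0.36 and 0.27), whereas TGFB2 (−0.31 and −0.34), CCDC80 (−0.40 and −0.65) and FOXF2 (−0.64 and −0.70) were lower in both, and ANKRD1 was at −0.07 and −0.13, not called. In MMP2sh1 at day 0, TGFB2 (0.14) and CCDC80 (0.25) had been called higher than control, as was CCDC80 at day −2 (0.22), and in MMP2sh2 ANKRD1 had been called lower at day −2 (−0.21) and day 0 (−0.13). CTGF (0.69) was therefore above all 18 of these genes in MMP2sh1 at that day, of which PTPN14 had the highest value (0.61).

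Of the 20 Hippo and TEAD components, 13 (65%) were called in the control between day −2 and day +2, 5 higher and 8 lower (median −0.05), near the 56.8% of all genes. WWTR1, which encodes TAZ, rose by 1.80 in the control, 2.14 in MMP2sh1 and 2.04 in MMP2sh2, while YAP1 was at 0.05 (adjusted p = 0.45), 0.19 (0.0098) and 0.25 (8.3e-04). VGLL4, a TEAD corepressor, rose by 1.16 in the control, and NF2 (−1.49), WWC1 (−1.66), TEAD4 (−1.17) and the kinase gene LATS2 (−0.41) fell. Against control at day +2, 7 of 20 were called in MMP2sh1, 5 of them higher (median 0.11), and 5 of 20 in MMP2sh2, 3 of them higher (median 0.03), beside 14.8% and 6.32% of all genes. PTPN14 (0.61 and 0.36) and NF2 (0.33 and 0.36) were higher in both lines at that day. WWTR1 was at 0.24 in MMP2sh1 (adjusted p = 0.0066) and 0.06 in MMP2sh2 (0.66) at day +2, but was lower than control in both lines at day 0 (−0.25 and −0.30, adjusted p = 0.0029 and 0.0014). YAP1 was called in neither line at day +2 (0.12 and −0.11), and in MMP2sh2 it was lower at day −2 (−0.32, adjusted p = 5.7e-04) and day 0 (−0.23, 0.0023).

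Among 14 CCN receptors, 12 of 13 tested were called in the control between day −2 and day +2 (5 higher, 7 lower, median −0.16), beside 56.8% of all genes. Against control at day +2, 4 of 13 (30.8%) were called in MMP2sh1, all higher (median 0.16), beside 14.8% of all genes, and 1 of 13 (7.69%) in MMP2sh2, also higher (median 0.04), near the 6.32% of all genes. ITGB3, the beta subunit of the vitronectin receptor, rose by 2.22 in the control, 3.06 in MMP2sh1 and 2.36 in MMP2sh2 over the days, and at day +2 it was at 0.97 in MMP2sh1 (adjusted p = 1.7e-11) and 0.08 in MMP2sh2 (0.67) against control, after −0.66 (3.1e-04) in MMP2sh2 at day 0. ITGA6 was higher in both lines at day +2 (0.22 and 0.39), whereas in MMP2sh1 it was lower than control at day −2 (−0.53, adjusted p = 1.1e-06) and day 0 (−0.38, 3.1e-06), and in MMP2sh2 it was called at neither (−0.09 and 0.10). Syndecan 4, SDC4, fell by 0.34 over the days in the control, and was at −0.16 and 0.16 in the shRNA lines at day +2, not called, while at day 0 it was called lower in MMP2sh1 (−0.13) and higher in MMP2sh2 (0.45).

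Other matricellular genes moved in both directions. In the control 9 of 9 tested were called between day −2 and day +2, 6 of them higher (median 0.50), where 56.8% of all genes were called. SMOC1 rose by 3.56, whereas the thrombospondin gene THBS1 fell by 1.20 and the tenascin gene TNC by 0.45. Against control at day +2, 5 of 10 were called in MMP2sh1, all higher (median 0.36), beside 14.8% of all genes, and 2 of 9 in MMP2sh2, both higher (median 0.03), beside 6.32%. SMOC1 (0.95 and 0.82) and TNC (0.76 and 0.44) were called in both lines, and SPARC (0.40) and THBS1 (0.36) in MMP2sh1, where MMP2sh2 had −0.02 and 0.03. At day 0 SMOC1 was instead lower than control in both lines (by −0.57 on the log2 scale in MMP2sh1, adjusted p = 4.7e-05, and 2-fold in MMP2sh2, adjusted p = 7.7e-09), and in MMP2sh1 also at day −2 (−0.55, 0.015). THBS1 and SPARC were higher in MMP2sh1 (0.21 and 0.22) and lower in MMP2sh2 (−0.21 and −0.11) at day 0, and TNC was called in neither line before day +2. The interaction for MMP2sh1 was 0.78 for TNC (adjusted p = 1.9e-05) and 1.50 for SMOC1 (5.0e-08), opposite in sign to the −1.77 of NOV.

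Pathways known to regulate CCN genes were followed in the same way, and each count is to be read against the 56.8% of all genes called in the control over the days, and the 14.8% in MMP2sh1 and 6.32% in MMP2sh2 called against control at day +2. Of 12 TGF-beta pathway genes, 8 (66.7%) were called in the control between day −2 and day +2 (3 higher, 5 lower, median −0.01), 6 in MMP2sh1 against control at day +2 (3 higher, 3 lower, median 0.02) and 4 in MMP2sh2 (all lower, median −0.08). SMAD3, which carries the TGF-beta signal to the nucleus, was lower in both lines at day +2 (−0.46 and −0.24), but higher than control in MMP2sh2 at day −2 (0.26) and day 0 (0.40). Of 8 tested WNT target genes, 6 were called in the control over the days, 5 of them higher (median 0.95), with RNF43 at 3.26, NKD1 at 2.01 and LEF1 at 1.91, beside 0.86 for WISP1. At day +2, 3 of 8 were called in each shRNA line, with NOTUM at −1.14 in MMP2sh1 and LEF1 at −0.68 and NKD1 at −0.75 in MMP2sh2 (medians −0.18 and −0.31). Of the SRF and MRTF genes, which report actin dynamics, 9 of 10 tested were called in the control over the days, 8 of them lower (median −0.34), with CNN1 at −3.04, TAGLN at −2.95 and TPM1 at −1.14. At day +2, 2 of 10 (20%) were called in MMP2sh1 and 1 of 10 (10%) in MMP2sh2, all higher and both shares near those of all genes, the latter being FHL2 (0.59). At day −2, 5 of 11 (45.5%, 4 higher) were called in MMP2sh1, beside 11.6% of all genes. In MMP2sh2 3 of 11 (27.3%, all higher) were called at that day, beside 11%. At day 0 the counts were 4 of 10 (2 higher) in MMP2sh1 and 3 of 11 (all higher) in MMP2sh2, beside 16.8% and 12.9%. Of 15 immediate early genes, 13 were called in the control over the days, 9 of them higher (median 0.46). EGR1 rose by 1.61 and DUSP1 fell by 1.62. At day +2, 7 of 15 were called in each shRNA line (medians 0.07 and 0.002), with KLF6 higher in both (0.65 and 0.29), though it was lower in MMP2sh1 at day 0 (−0.22) and in MMP2sh2 at day −2 (−0.23). Of the osteoblast lineage markers, 5 of 5 tested were called in the control over the days, 2 of them higher (median −0.14), 4 of 6 in MMP2sh1 against control at day +2, all higher (median 0.21), with ALPL at 0.88 and SPARC at 0.40, and 0 of 5 in MMP2sh2 by edgeR or DESeq2 (1 at an unadjusted p under 0.05, median 0.08). At day −2, 2 of 5 osteoblast markers were called in MMP2sh1 and 1 of 5 in MMP2sh2, all higher, beside 11.6% and 11%. At day 0 they were 2 of 5 (1 higher, 1 lower) and 2 of 5 (both lower), beside 16.8% and 12.9%. Of the markers of other cell types, 3 of 6 tested were called in the control over the days, all lower, and 0 of 5 by edgeR or DESeq2 in each shRNA line against control at day +2 (0 in MMP2sh1 and 3 in MMP2sh2 at an unadjusted p under 0.05). At day −2, 2 of 6 of these markers were called in MMP2sh1 (1 by DESeq2) and 1 of 7 (14.3%) in MMP2sh2, all higher. The shares of all genes were 11.6% and 11%, the latter near that of MMP2sh2. At day 0, 1 of 8 (12.5%) was called in MMP2sh1, higher (0 by DESeq2), and 0 of 7 in MMP2sh2, both below the 16.8% and 12.9% of all genes.

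**Figure D5:**
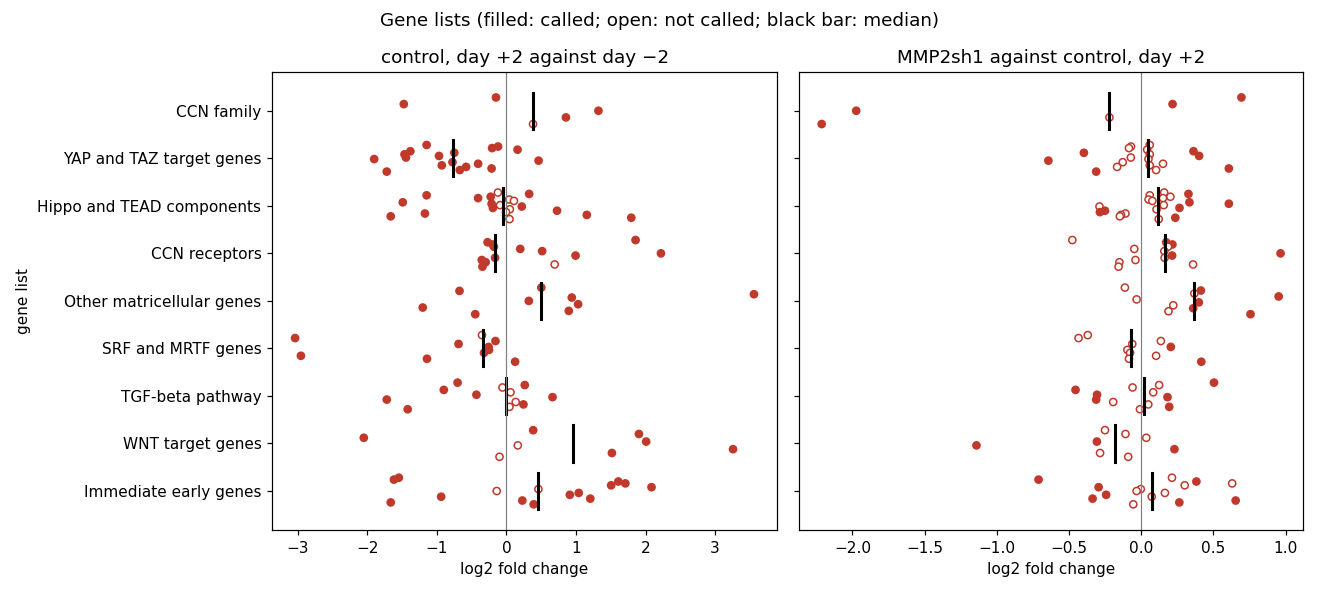
Log2 fold change (x axis) of every tested gene of 9 gene lists (y axis) in the control at day +2 against day −2 (left) and in MMP2sh1 against control at day +2 (right). Filled points were called, open points were not, and black bars are list medians. The YAP and TAZ targets lie mostly below 0 on the left (median −0.76) and around 0 on the right (median 0.05), where CTGF (0.69) and NOV (−1.97) stand outside their range.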

How the data were processed

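Poly(A) RNA-Seq libraries of 3 U2OS lines at 3 days of culture, 3 per group, were assigned to groups from the sample labels. According to the submitters' methods, the authors trimmed reads (Trim Galore 0.6.0), mapped them on hg19 (STAR 2.7.3a) and counted exon reads per gene symbol with HTSeq 2.0.0 in union mode without strand. The deposited values are raw counts. HTSeq's 5 summary lines (16.8% to 19.1% of each total) stayed out of library sizes and tests. The version of the annotation is not given in the sources used here.

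From the counts, 18 comparisons of 6 libraries and 2 interactions of 12 libraries were fitted with edgeR 4.0.16 in R 4.3.3 (TMM, filterByExpr with a minimum count of 10 and total of 15, quasi-likelihood test, Benjamini-Hochberg over all tested genes, called at adjusted p under 0.05). The standard error is the size of the log2 fold change divided by the square root of F. Tested on simulated data with 200 genes changed 2-fold, the fit called 72.5% of them for MMP2sh1 against control at day −2 (18878 genes), 69.5% for the control at day 0 against day −2 (19317 genes) and 53.5% for the MMP2sh1 interaction (20548 genes). Alternatives were DESeq2 1.42.0, median-of-ratios (RLE) scaling, no filter, a stricter filter (10 counts or more in every library), a block for the replicate number, edgeR on all 27 libraries, each library left out in turn, CPM without TMM factors, and correlation over libraries.

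The CCN genes and all gene lists were chosen with earlier results of these data known. Beside the CCN genes and MMP2, the text names, per list and kind of comparison, up to 4 called genes of largest change, and by role YAP1, WWTR1, LATS2, ANKRD1, AXL, THBS1 and TNC, while another gene of this rule is not reported here. SPARC was also given as a marker, as were COL1A1, COL1A2, SP7, IBSP, BGLAP, VIM and KRT18, and uncalled values stand beside called ones. Positions are from GENCODE on GRCh37. Replicates of every group differed by more than sampling noise in a chi-square test of their counts.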

Additional observations from a re-analysis of the deposited data

Results flagged for a closer look

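In 4 tests of CCN genes the change from day −2 to day +2 differed between an shRNA line and the control (interaction in edgeR). For NOV the difference was −1.77 in MMP2sh1 (adjusted p = 1.3e-13) and −0.71 in MMP2sh2 (5.4e-07). Of the 3 lines, MMP2sh1 was the one in which NOV was lower at day +2 (40.2 to 48.3 CPM) than at day −2 (58.6 to 65.6 CPM), with no overlap of libraries. For CTGF in MMP2sh1 it was 0.33 (adjusted p = 0.0073), with 18 alternatives between 0.28 and 0.37, all called. For WISP2 in MMP2sh2 it was −2.71 (adjusted p = 0.041), from 4 to 43 reads per MMP2sh2 library and 6 to 44 per control library, and the adjusted p rose to as much as 0.11 with 1 library left out.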

How the results depend on the processing

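Of 98 tests of CCN genes, 57 were called, and 1111 of their 1213 alternative values kept the direction and the side of the threshold. Fits that gave no adjusted p are not among these values. For WISP2, neither DESeq2 nor the stricter filter gave one for MMP2sh1 against control at day +2 or for the MMP2sh2 interaction. Both of these edgeR calls were therefore not checked by those fits. RLE scaling changed none of the 98. The other fits changed CYR61 and CTGF where differences were small. For CYR61 in MMP2sh1 against MMP2sh2, DESeq2 (−0.163 at day −2, −0.180 at day +2) and edgeR on all 27 libraries (−0.163 and −0.175) made a call, as did the stricter filter at day +2 (−0.179). For CTGF in MMP2sh1 against MMP2sh2 at day −2, DESeq2 and the 27-library fit made a call (both 0.174). For CYR61 in MMP2sh2 from day −2 to day 0, the call was lost without a filter (−0.127), with the stricter filter (−0.128) and on all 27 libraries (−0.130), and the last also lost WISP2 in the MMP2sh2 interaction (−2.710). The causes were not tested.

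With the replicate number as a block (replicate block), calls were gained for MMP2sh1 against MMP2sh2 in CYR61 at day −2 and day +2 (−0.163 and −0.179), CTGF at day −2 (0.172) and WISP1 at day +2 (0.580), and lost for CYR61 in MMP2sh2 from day −2 to day 0 (−0.133), and WISP2 in MMP2sh1 at day 0 turned to −0.086. Same-numbered libraries did not deviate together over all genes (correlation over 22107 genes −0.025 to 0.036, with no comparison of 18 in which every pair passed 0.1). The labels give a number only, and a batch shared by same-numbered libraries was not tested otherwise. With the block, the genes called rose from 2009 to 2974 for MMP2sh1 against MMP2sh2 at day −2. For MMP2sh1 against control at day +2 they fell from 2854 to 2126.

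With each library left out in turn, 85 of 648 values changed call or direction. For CYR61 these ranges were −0.018 to 0.100 (MMP2sh1 against control day −2), 0.148 to 0.258 (MMP2sh2 against control day −2), 0.158 to 0.280 (MMP2sh1 against control day +2), −0.222 to −0.147 (MMP2sh1 against MMP2sh2 day +2), −0.176 to −0.119 (MMP2sh1 day 0 against day −2) and −0.185 to −0.102 (MMP2sh2 day 0 against day −2). For CTGF these ranges were 0.162 to 0.230 (MMP2sh2 against control day −2), 0.142 to 0.211 (MMP2sh1 against MMP2sh2 day −2), −0.031 to 0.061 (control day 0 against day −2), −0.184 to −0.092 (control day +2 against day 0), −0.182 to −0.098 (control day +2 against day −2), −0.151 to −0.078 (MMP2sh1 day +2 against day 0), 0.136 to 0.189 (MMP2sh1 day +2 against day −2) and −0.005 to 0.076 (MMP2sh2 day +2 against day 0). For NOV these ranges were −0.241 to −0.165 (MMP2sh1 against control day −2), −0.303 to −0.210 (MMP2sh1 against MMP2sh2 day −2) and 0.051 to 0.178 (control day +2 against day 0). For WISP1 these ranges were −0.851 to −0.624 (MMP2sh2 against control day −2), −0.883 to −0.497 (MMP2sh1 against control day 0), −1.047 to −0.442 (MMP2sh2 against control day +2), 0.223 to 0.829 (MMP2sh1 against MMP2sh2 day +2), −0.029 to 0.242 (control day 0 against day −2), 0.125 to 0.734 (MMP2sh2 day +2 against day 0), 0.525 to 1.134 (MMP2sh2 day +2 against day −2), −0.062 to 0.251 (MMP2sh1 interaction) and −0.328 to 0.291 (MMP2sh2 interaction). For WISP2 these ranges were −0.193 to 0.776 (MMP2sh1 against control day −2), −0.875 to 0.707 (MMP2sh1 against control day 0), −2.828 to −1.741 (MMP2sh1 against control day +2), −1.195 to 0.303 (MMP2sh1 against MMP2sh2 day 0), −0.797 to 0.309 (control day 0 against day −2), −1.347 to 0.152 (MMP2sh1 day 0 against day −2), −2.683 to −1.592 (MMP2sh1 day +2 against day −2), −1.903 to −1.070 (MMP2sh2 day +2 against day 0) and −3.236 to −2.340 (MMP2sh2 interaction). The numbers of genes called over all genes also moved by more than 1.5 times when single libraries were left out. In MMP2sh2 against control they were 728, 1174 and 1252 at day −2 without control replicate 1, 2 or 3 and 1360 without its own replicate 3 (2080 with all), 1509 at day 0 without its replicate 2 (2456), and 761, 679 and 780 at day +2 without control replicate 2 or 3 or its replicate 1 (1222). In MMP2sh1 against control it was 1321 at day −2 without control replicate 1 (2184). In MMP2sh1 against MMP2sh2 they were 1208, 1293 and 1282 at day −2 without MMP2sh1 replicate 1 or 2 or MMP2sh2 replicate 2 (2009), and 968, 885 and 984 at day +2 without MMP2sh1 replicate 2 or MMP2sh2 replicate 1 or 2 (1527). In the interactions they were 1004 and 934 for MMP2sh1 (1520) and 541 for MMP2sh2 (1029) without control replicate 2 or 3, or 3, of day +2. Without TMM factors 7 of 54 group levels moved by 1 SD or more. They include WISP3 in MMP2sh1 at day +2, which had no reads and an SD of 0 and so did not change. Depth limits WISP1, WISP2 and WISP3.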
